A study of Mus musculus with 33 samples.

Results

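The epithelial to mesenchymal transition was followed here through 10 genes of the 24391 in the deposited table of mouse embryonic stem (ES) cell RNA counts. They were chosen by name, and all 10 had enough counts to be tested. Cdh1 and Epcam encode adhesion proteins of epithelial cells. Cdh2, Cdh11 and Vim are commonly used as markers of mesenchymal cells. Snai1, Snai2, Twist1, Zeb1 and Zeb2 encode transcription factors that are known to drive the transition.

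RNA with polyA tails was sequenced from cells of a CAST/Ei × 129/Sv/Jae cross, labelled wildtype (WT) or RepB, which refers to Repeat B in the noncoding RNA Xist. Each genotype had 1 library at day 0 (undifferentiated) and 1 at each of days 5, 6, 7, 8 and 10 of differentiation, 12 libraries in all, so there were no replicate cultures. Both genotypes were kept on irradiated mouse embryonic fibroblast feeders with LIF, separated from the feeders, grown as embryoid bodies in suspension and then placed on gelatin. The labels do not say what the RepB edit removes, which allele carries it, or how many clones were used, and the 21 ChIP and input samples of the series were not analysed here.

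In an epithelium, cells hold to each other through E-cadherin, the product of Cdh1, whose tail binds catenins that tie it to the actin cytoskeleton. During the transition the Snail, Twist and Zeb factors repress Cdh1 and other epithelial genes, often by binding short E-box letters in their promoters. N-cadherin (Cdh2) and the intermediate filament vimentin (Vim) then become more abundant. In the embryo this happens at gastrulation, when epiblast cells leave the primitive streak to form mesoderm. ES cells express Cdh1 before they differentiate, and cultured embryonic fibroblasts express Vim and collagens.

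The E-box letters CACCTG, with their reverse complement CAGGTG, are the motif that Snail and Zeb proteins bind, and they were searched on both strands of the 300 bases around gene starts (250 before and 50 after). These RefSeq promoter sequences (build GRCm38.p6) covered 5 of the 10 genes, Epcam, Snai1, Twist1, Vim and Zeb2. Epcam held the letters at 2 places, starting 187 and 19 bases before the gene start, and Snai1 held them at 1 place, 126 bases before it. Twist1, Vim and the 4 starts of Zeb2 held none. Among all 32851 promoters of the table, 20.2% held the letters at least at 1 place and 2.88% at 2 or more places. The 250 bases before the starts of Epcam (chr17:87635729-87635978, + strand) and Snai1 (chr2:167537945-167538194, + strand) are shown because they are the only ones of these promoters with a match. The E-box letters are in capitals, and a match is a description of the sequence, not evidence of binding.

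Epcam: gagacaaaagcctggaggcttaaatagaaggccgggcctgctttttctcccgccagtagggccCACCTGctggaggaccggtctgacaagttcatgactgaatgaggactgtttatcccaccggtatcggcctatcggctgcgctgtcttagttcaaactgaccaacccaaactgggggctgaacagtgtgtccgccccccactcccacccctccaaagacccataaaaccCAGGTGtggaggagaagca

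Snai1: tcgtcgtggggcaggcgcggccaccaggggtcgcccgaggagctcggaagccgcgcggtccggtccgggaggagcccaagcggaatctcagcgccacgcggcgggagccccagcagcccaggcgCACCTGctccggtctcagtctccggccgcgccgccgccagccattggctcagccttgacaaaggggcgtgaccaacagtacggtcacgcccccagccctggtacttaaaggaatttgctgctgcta

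The smallest library held 3594551 counts (RepB day 8) and the largest 17773138 (WT day 5), and from day 5 on WT had 2.07 to 3.35 times the depth of RepB. Levels are given in CPM, counts scaled to library size by the TMM method, where 3 counts equalled 0.164 to 0.889 CPM, and this floor covers counting error only. Of 8 ES cell markers (Pou5f1, Nanog and others), 8 were lower over days 5 to 10 than at day 0, as were 32.3% of all genes. At day 5 alone 6 of the 8 were lower and 0 higher, where 23.7% of all genes were lower. Pou5f1 read 769 CPM at day 0 and 975 CPM at day 5 in WT, and 942 and 1167 CPM in RepB. A list of 13 fibroblast and feeder genes, led by Col1a1 and Col1a2, summed to 776 CPM in WT and 925 CPM in RepB at day 0. It summed to 99.5 and 79.5 CPM at day 5, and then to 11552 and 16455 CPM at day 10. No library had more than 3 of the 13 genes at 0. In bulk RNA, fewer cells of a type and less RNA per cell cannot be told apart.

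The epithelial genes were highest at day 5. Cdh1 (chr8:109127268-109127442 is the exon listed first, + strand, build mm9) read 673, 1366, 987, 579, 258 and 239 CPM in WT at days 0, 5, 6, 7, 8 and 10, and in the RepB line 701, 1179.9, 969.8, 572, 346 and 323 CPM. The lowest levels of Cdh1 were therefore at days 8 and 10 in both lines, below day 0, and its highest were at days 5 and 6. The values of Epcam (chr17:88035319-88035412, + strand), which encodes an adhesion protein and surface marker of epithelia, were 90.6, 273, 203, 124, 122 and 76.7 CPM in WT. They were 75.4, 256, 213, 131, 97.5 and 94.7 CPM in RepB. Epcam, whose promoter held E-box letters at 2 places, rose with Cdh1 at day 5 and returned by day 10 to levels that overlapped those of day 0.

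In edgeR quasi-likelihood tests over both lines, with Benjamini-Hochberg adjustment over all genes, Cdh1 rose by 0.90 ± 0.16 (log2 ± SE, adjusted p = 0.000884) from day 0 to day 5. Epcam rose by 1.68 ± 0.15 (adjusted p = 4.06e-06), and 46.1% of all genes passed this test in either direction. At day 10 Cdh1 was lower than at day 0 by edgeR (log2 -1.30 ± 0.17, adjusted p = 2.47e-05), while Epcam differed by 0.04 (adjusted p = 0.821). Over days 5 to 10 both fell steadily: the log2 slope per day was -0.47 ± 0.06 for Cdh1 (edgeR, adjusted p = 0.000134) and -0.33 ± 0.04 for Epcam (adjusted p = 8.73e-05). Averaged over days 5 to 10 the rise and the fall of Cdh1 nearly cancelled, at -0.27 ± 0.12 against day 0 (adjusted p = 0.0751). That average passed the test without day 5 (-0.61, adjusted p = 0.000579) or without day 6 (-0.51, adjusted p = 0.00351), and with size factors by DESeq2's method (-0.31, adjusted p = 0.0475) or DESeq2's own test (-0.31, adjusted p = 0.0459). For the slopes, the spread is that around straight lines within 1 time course per line. In the tests against day 0 it comes from how far the 2 lines differed from day to day over days 5 to 10. The day 0 libraries, fitted exactly, add no spread of their own. No p here speaks for other cultures or clones.

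**Figure D1:**
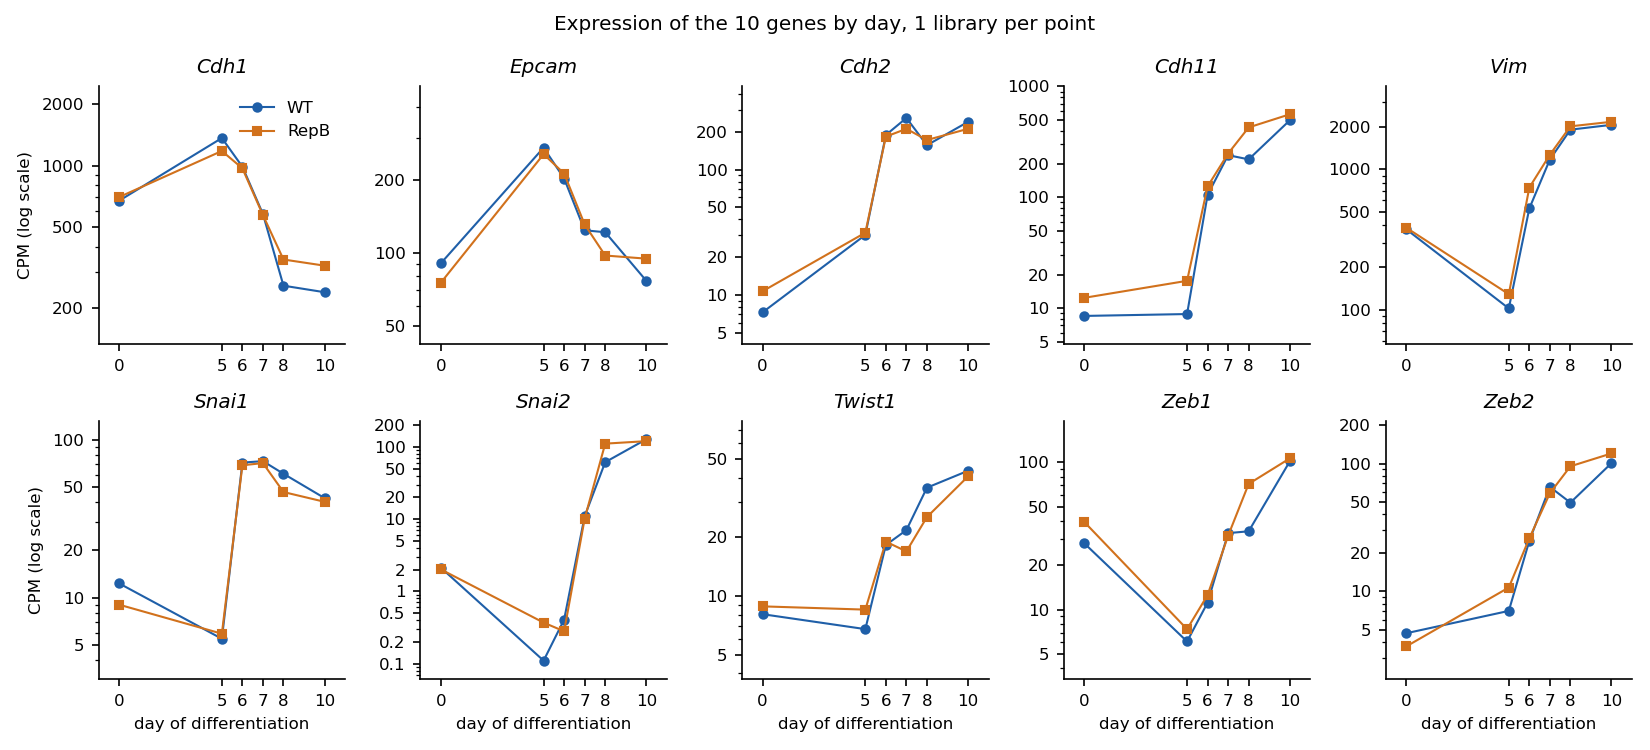
CPM (log scale, with a range of its own in each panel) of the 10 genes against day of differentiation, with 1 library per point, WT as blue circles and RepB as orange squares. Cdh1 and Epcam peak at day 5, Vim and Zeb1 are lowest there, and Cdh2, Cdh11 and Snai1 step up between days 5 and 6.

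The mesenchymal cadherins were lowest at day 0 in both lines. Cdh2 (chr18:16747386-16748862, - strand), which encodes N-cadherin, read 7.25, 30.1, 189, 258, 156 and 240.5 CPM in WT over the 6 days. In RepB it read 10.7, 31.3, 183, 212, 172 and 212 CPM. Every library of days 5 to 10 was above both day 0 libraries, and most of the rise was in place at day 6. The values of Cdh11 (chr8:105156895-105158710, - strand), the osteoblast cadherin of mesenchymal cells, were 8.54, 8.88, 105, 240.2, 220.1 and 494 CPM in WT. They were 12.4, 17.7, 126, 248, 427 and 561 CPM in RepB. Cdh11 was highest at day 10 in both lines, and at day 5 WT still lay between the day 0 values of the lines.

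Both made their largest step between days 5 and 6, Cdh2 by 2.61 ± 0.15 on the log2 scale (edgeR, adjusted p = 7.11e-07) and Cdh11 by 3.22 ± 0.24 (adjusted p = 6.56e-06). Among all genes, 5.79% passed the test of this step, 4.02% upward and 1.77% downward. Of the 10 genes described here, 6 passed it upward and 0 downward. The step was chosen for testing after values were seen, so the excess of the 10 genes over all genes is partly built in. No other step between neighbouring days was tested, so whether fewer genes moved here than at other steps is not known. From day 0 to day 10 Cdh2 rose by 4.68 ± 0.16 (edgeR, adjusted p = 1.39e-09) and Cdh11 by 5.68 ± 0.26 (adjusted p = 5.51e-09). Over days 5 to 10 the slope of Cdh11 was 0.84 ± 0.18 per day (edgeR, adjusted p = 0.00286). The slope of Cdh2 was 0.32 ± 0.16 (adjusted p = 0.108 in edgeR and 0.0314 in limma-voom, which put it at 0.41).

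Per exon length (RPKM), Cdh1 stood 97.7 times above Cdh2 in WT at day 0 and 69.0 times above it in RepB. The ratio was 47.8 and 39.6 at day 5, 5.50 and 5.57 at day 6, 2.36 and 2.85 at day 7, and 1.73 and 2.12 at day 8. At day 10 it was 1.05 in WT and 1.61 in RepB, so Cdh1 RNA was not below Cdh2 RNA in any of the 12 libraries. Cdh11 passed Cdh1 by day 10 in WT (117 against 54.2 RPKM), and by day 8 in RepB (101 against 78.5 RPKM).

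**Figure D2:**
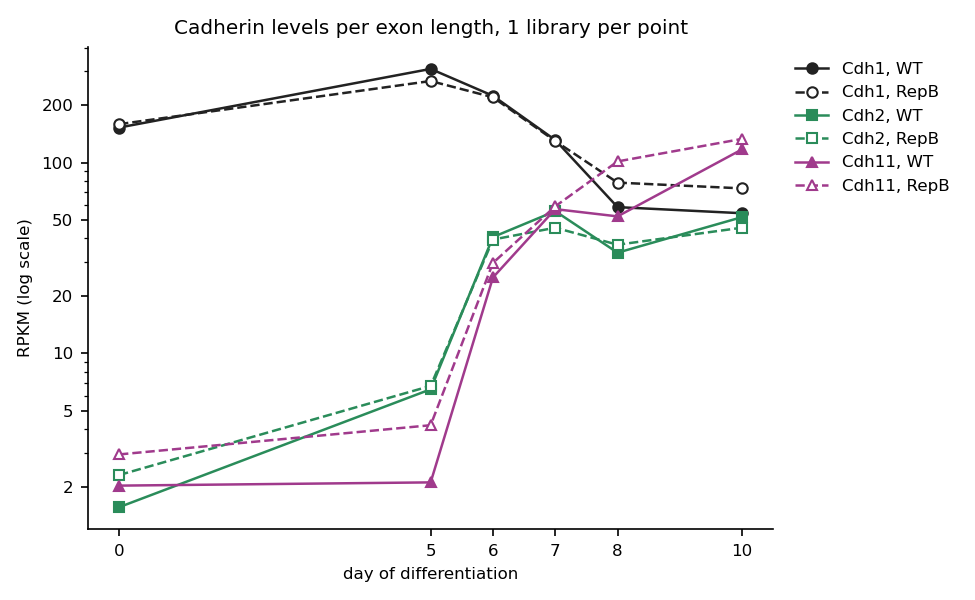
RPKM (log scale) of the 3 cadherin genes against day of differentiation, with 1 library per point, WT as filled symbols with solid lines and RepB as open symbols with dashed lines. Cdh1 declines from day 5 while Cdh2 and Cdh11 climb, and at day 10 Cdh1 and Cdh2 in WT are 1.05-fold apart.

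Vim, which encodes the intermediate filament protein of mesenchymal cells (chr2:13495938-13496621, + strand), was high before differentiation. It read 374, 102, 526, 1173, 1916 and 2075 CPM in WT and 384, 129, 741, 1269.5, 2024 and 2180.3 CPM in RepB. Day 5 was the lowest day in both lines, below both day 0 libraries, and days 6 to 10 were all above day 0. From day 0 to day 5 Vim fell by 1.73 ± 0.14 on the log2 scale (edgeR, adjusted p = 2.51e-06). The step from day 5 to day 6 was 2.45 ± 0.15 (edgeR, adjusted p = 1.02e-06), and day 10 was 2.49 ± 0.14 above day 0 (adjusted p = 3.27e-08). Per exon length Vim exceeded Cdh1 in both lines at day 0, by 1.34-fold in WT and 1.32-fold in RepB, was below it at day 5, and was 20.9-fold and 16.2-fold above it at day 10.

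The RNA of Vim at day 0 came mostly from 1 allele. Reads over strain variants were counted by the authors for alleles called cas and mus, taken here to mean the CAST/Ei and the 129/Sv/Jae allele. In WT the cas share of Vim was 11.4%, 42.4%, 48.3%, 51.7%, 53.5% and 50.2% in order of day. The RepB shares were 11.5%, 45.1%, 49.6%, 51.2%, 53.6% and 50.5%. Both day 0 shares stand far below the later ones: the exact Clopper-Pearson 95% intervals, which cover counting error only, were 10.4% to 12.5% in WT and 10.4% to 12.7% in RepB. Genes within 5 Mb of Vim had a cas share of 45.5% at day 0 and 48.4% over days 5 to 10.

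The odds of a cas read of Vim rose by 2.92 ± 0.12 on the log2 scale from day 0 to days 5 to 10 (edgeR, adjusted p = 3.98e-136), and 8.06% of all genes passed this test, 5.72% upward and 2.34% downward. Of the 10 genes 8 could be tested and 1, Vim, passed. The p of Vim is that of a normal distribution at this estimate and SE, not widened for the few libraries. Day 0 had 1 library per line, so this p does not speak for other cultures. On the CPM scale, cas reads of Vim in WT numbered 22.5 at day 0 and 20.1 at day 5, whereas mus reads numbered 174 and 27.3. In RepB cas reads numbered 22.7 and 24.3 and mus reads 175 and 29.7. Tested alone, cas reads differed by -0.12 ± 0.15 from day 0 to day 5 (edgeR, adjusted p = 0.595), and mus reads fell by 2.60 ± 0.16 (adjusted p = 2.59e-10). Over days 5 to 10 against day 0, cas reads rose by 3.00 ± 0.13 (edgeR, adjusted p = 1.41e-15), whereas mus reads differed by 0.17 ± 0.11 (adjusted p = 0.204). The fall of total Vim at day 5 was thus measured in mus reads, and its mean rise over days 5 to 10 in cas reads. By day 10 both alleles were above day 0, cas reads by 4.43 and mus reads by 1.55 on the log2 scale.

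The fibroblast and feeder genes moved with this result. Of the 12 that could be tested, 11 were lower at day 5 than at day 0 and 0 were higher, where 23.7% of all genes were lower. Col1a1, a major fibroblast collagen gene, had 23 cas reads of 1939 at day 0 over both lines (1.19%), against 57.6% over days 5 to 10 and 48.7% in its neighbours at day 0. Col1a2 had 18.6% at day 0 against 69.7% later, with 69.8% in its neighbours. Thy1, a surface marker of fibroblasts, had 49.4% at day 0 and 63.0% later, with 51.3% in its neighbours at day 0. Among these genes the low cas share of day 0 was therefore seen in Vim, Col1a1 and Col1a2 but not in Thy1. The level of Thy1 did not follow that of the collagens. It read 101 CPM at day 0, 30.2 CPM at day 5 and 4.68 CPM at day 10 in WT, and 121, 24.7 and 6.40 CPM in RepB. Col1a1 read 286, 17.8 and 3563 CPM in WT on those days. Col1a1, Col1a2 and Thy1 were compared because their neighbours carried both alleles (25% to 75% cas). Fap, also in such a place, had 4 allelic reads at day 0. Elsewhere on the list Postn went the other way, from 34.0% cas at day 0 (34 of 100 reads) to 1.33% later, with 1.53% in its neighbours at day 0. Fbn1 went from 4.49% to 0.90%. The part of feeder RNA in the day 0 level of Vim was not tested.

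**Figure D3:**
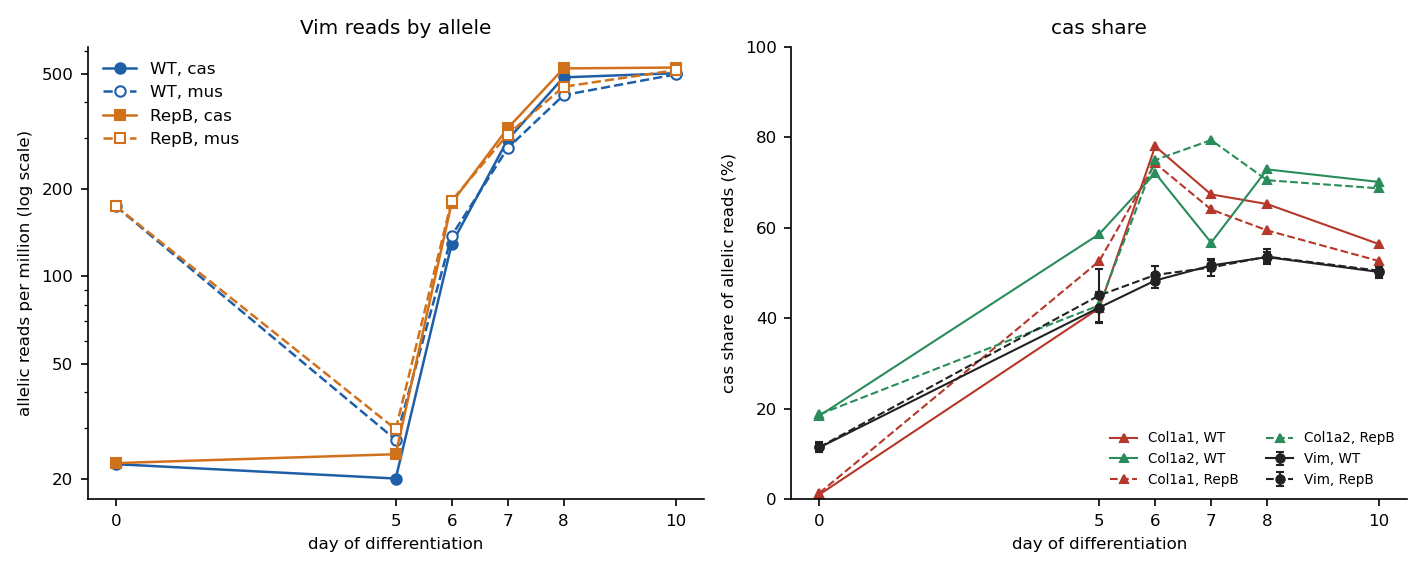
Left, allelic reads of Vim in CPM (log scale) by day in WT (blue) and RepB (orange), with cas as filled and mus as open symbols. Right, the cas share in percent of Vim (black, bars are 95% Clopper-Pearson intervals), Col1a1 (red) and Col1a2 (green), WT solid and RepB dashed: at day 0 all 3 genes are below 20%, and Vim lies between 42.4% and 53.6% from day 5 on.

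Zeb2 is the only other member whose neighbours carried both alleles in near equal amounts (49.1% cas at day 0). It had 1 cas read of 8 at day 0 and 165 of 281 later (58.7%), a difference that did not pass the test (log2 odds 3.24 ± 1.52, edgeR, adjusted p = 0.241). Genes around Cdh1, Epcam, Cdh2, Cdh11, Snai2, Twist1 and Zeb1 had cas shares of 1.17% to 3.75% at day 0, so allelic reads say little about those genes. Snai1 and Twist1 had 2 and 3 allelic reads in all and were not tested.

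Among the transcription factors, Snai1 stepped up between days 5 and 6. Snai1 (chr2:167363727-167363871, + strand) encodes the Snail repressor and read 12.3, 5.48, 71.5, 73.0, 60.8 and 42.6 CPM in WT. In RepB it read 9.01, 5.90, 68.8, 71.0, 46.5 and 40.4 CPM. All libraries of days 6 to 10 were above both day 0 libraries, which were above both day 5 libraries. Snai1 rose by 3.65 ± 0.17 on the log2 scale from day 5 to day 6 (edgeR, adjusted p = 2.09e-07), the largest difference of the 10 genes between those days. From day 7 to day 10 it was lower each day, and its slope over days 5 to 10 was 0.15 ± 0.23 (edgeR, adjusted p = 0.596) and turned to -0.21 (adjusted p = 0.00351) when day 5 was left out. The fall of Snai1 from day 0 to day 5, -0.92 ± 0.18 (edgeR, adjusted p = 0.00142), missed the threshold when the libraries were thinned to the smallest one (adjusted p = 0.0504).

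Snai2, which encodes the related repressor Slug (chr16:14705952-14706145, + strand), came up later than Snai1, between days 6 and 7. It read 2.12, 0.110, 0.406, 10.9, 61.4 and 127 CPM in WT and 2.01, 0.369, 0.280, 10.1, 111 and 120.0 CPM in RepB. Behind these values stood 2 counts in each day 5 library, and 6 counts (WT) and 2 counts (RepB) at day 6, so no fold is given against those days, and averages and slopes that include them rest on few counts. At day 10 Snai2 was 5.91 ± 0.28 above day 0 on the log2 scale (edgeR, adjusted p = 6.99e-09). Its mean over days 5 to 10 was 1.55 ± 0.36 above day 0 (edgeR, adjusted p = 0.00239), a call that was lost without day 8 (0.58, adjusted p = 0.0953) or day 10 (0.48, adjusted p = 0.275). Per exon length Snai1 exceeded Snai2 8.46-fold in WT and 8.88-fold in RepB at day 7, and at day 10 Snai2 exceeded Snai1 2.36-fold and 2.34-fold. At day 8 the lines were on opposite sides, with Snai1 higher by 1.25-fold in WT and Snai2 higher by 1.88-fold in RepB.

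Twist1, a basic helix-loop-helix factor of mesoderm and neural crest (chr12:34642536-34643503, + strand), changed less. Its values were 8.04, 6.74, 18.1, 21.6, 35.6 and 43.4 CPM in WT and 8.81, 8.48, 18.9, 16.8, 25.2 and 40.7 CPM in RepB. Days 0 and 5 differed by -0.20 ± 0.22 (edgeR, adjusted p = 0.473), and all libraries from day 6 on were above those 4 libraries. The step at day 6 was 1.33 ± 0.22 on the log2 scale (edgeR, adjusted p = 0.00282), and day 10 was 2.32 ± 0.20 above day 0 (adjusted p = 8.76e-07).

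The Zeb genes, which encode zinc finger repressors with a homeodomain, took different courses. Zeb1 (chr18:5591858-5591965, + strand) read 28.2, 6.08, 11.2, 33.1, 34.1 and 101 CPM in WT and 39.3, 7.37, 12.6, 31.8, 71.4 and 106 CPM in RepB. Like Vim it was lowest at day 5, at -2.31 ± 0.25 against day 0 (edgeR, adjusted p = 2.02e-05), and at day 10 it was above day 0, by 1.65 ± 0.22 (adjusted p = 2.87e-05). The part of feeder RNA in the day 0 level of Zeb1 was not tested. Zeb2 (chr2:44839032-44844673, - strand) read 4.69, 7.02, 24.8, 65.7, 49.4 and 101 CPM in WT and 3.69, 10.7, 26.0, 58.5, 95.2 and 120.0 CPM in RepB. Zeb2 was already above day 0 at day 5, by 1.03 ± 0.28 (edgeR, adjusted p = 0.00978), and by 4.72 ± 0.26 at day 10 (adjusted p = 2.21e-08). Per exon length Zeb1 exceeded Zeb2 9.69-fold in WT and 17.2-fold in RepB at day 0, and 1.62-fold and 1.43-fold at day 10. In between, Zeb1 was below Zeb2 in both lines at day 6 (ratios of 0.724 and 0.780) and day 7 (0.812 and 0.875). Zeb2os, which neighbours Zeb2 on the other strand, held 0 to 27 counts per library (at most 2.78 CPM), and whether counting used strand was not stated.

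The averages of Zeb1 over days 5 to 10 hid its course: it differed by -0.31 ± 0.17 from day 0 (edgeR, adjusted p = 0.118), and was called lower without day 8 (-0.53, adjusted p = 0.000253) or day 10 (-0.80, adjusted p = 0.00297). Over days 5 to 10, 64.1% of all genes differed from day 0, 31.7% upward and 32.3% downward. Of the 10 genes 8 were higher, 0 were lower, and 2 (Cdh1 and Zeb1) did not pass. Their median difference was 1.41 on the log2 scale against 0.0142 over all genes. Day 5 alone against day 0 split the 10 genes, where 22.5% of all genes were higher and 23.7% lower: 4 were higher (Cdh1, Epcam, Cdh2 and Zeb2), 4 lower (Vim, Snai1, Snai2 and Zeb1) and 2 did not pass (Cdh11 and Twist1). The part of feeder RNA in the day 0 levels of the 4 lower genes was not tested. For Snai1, Snai2 and Zeb1 the allelic reads are too few or too one-sided to separate it. At day 10, where 65.7% of all genes differed from day 0 (33.8% upward, 31.9% downward), 8 were higher, 1 was lower (Cdh1) and Epcam did not pass. The slope over days 5 to 10 passed the test in 54.5% of all genes (27.9% upward, 26.6% downward) and in 8 of the 10, upward in 6 (Cdh11, Vim, Snai2, Twist1, Zeb1 and Zeb2) and downward in 2 (Cdh1 and Epcam).

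RepB and WT cells were compared over days 5 to 10 with the days as blocks, a test that 2.28% of all genes passed (346 genes). Of the 10 genes 0 passed, and 3 had an unadjusted p under 0.05, as had 2271 of the 15179 genes tested. Cdh11 was 0.45 ± 0.14 higher in RepB on the log2 scale (edgeR, adjusted p = 0.132), Vim 0.22 ± 0.09 higher (adjusted p = 0.263) and Zeb2 0.32 ± 0.14 higher (adjusted p = 0.323). Cdh11 and Vim were higher in RepB on 5 of 5 days. Cdh11 was also higher in RepB at day 0, by 0.52 on the log2 scale of CPM with 0.5 added, and less that day its difference was -0.10 ± 0.37 (edgeR, adjusted p = 0.962). DESeq2 called Cdh11 (0.48, adjusted p = 0.0372), as did edgeR without a filter on low counts (0.44, adjusted p = 0.0449), and limma-voom called 0 of the 10. For the epithelial genes the difference was 0.12 ± 0.10 (Cdh1) and 0.01 ± 0.09 (Epcam), neither of which passed. Snai1 was lower in RepB on 4 of 5 days, at -0.11 ± 0.10 (edgeR, adjusted p = 0.672).

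At day 8 the lines stood farther apart than on the other days from day 5 on for Epcam, Snai1, Snai2, Twist1, Zeb1 and Zeb2. There the log2 RepB/WT ratio of CPM, with 0.5 CPM added, was 1.06 for Zeb1, 0.96 for Cdh11, 0.94 for Zeb2 and 0.85 for Snai2. For Vim it was 0.08, for Cdh2 0.14, for Cdh1 0.43, for Epcam -0.32, for Snai1 -0.38 and for Twist1 -0.49. The 10 genes therefore did not move one way at day 8, and with 1 library per line and day the day 8 values have no replicate. The summed fibroblast list also differed on that day (WT 1832 CPM, RepB 4220.4 CPM), and its part in these ratios was not tested. RepB day 8 was the library with the fewest counts.

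**Figure D4:**
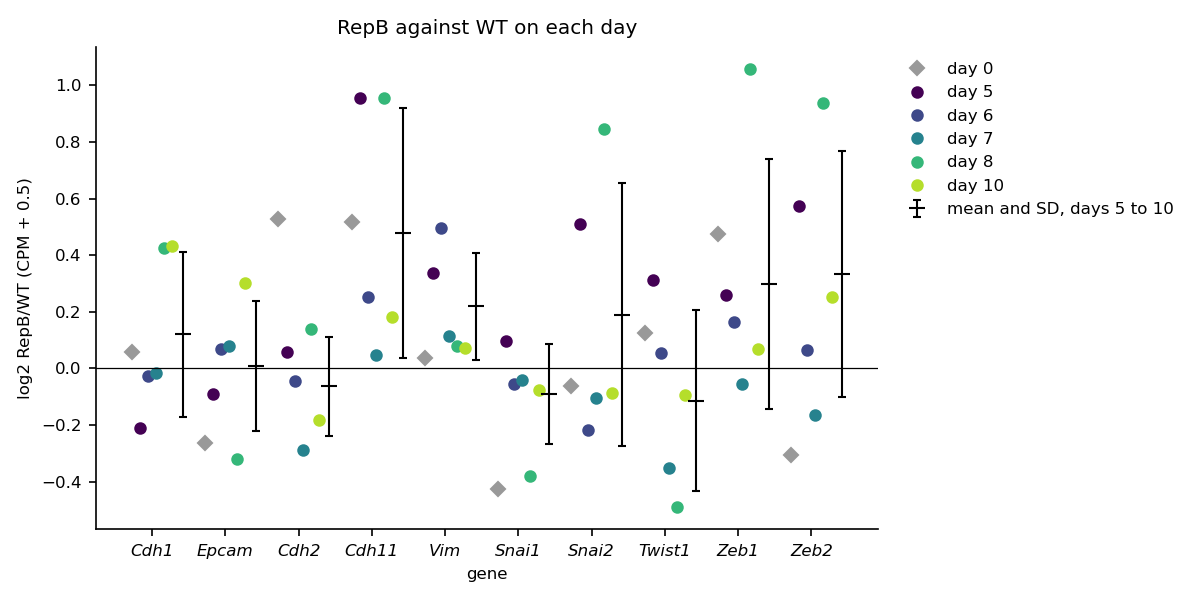
Log2 RepB/WT of CPM (with 0.5 CPM added) for each of the 10 genes, with 1 point per day, day 0 as grey diamonds, and the mean and SD over the 5 days 5 to 10 as black bars. The day 8 points of Zeb1, Cdh11, Zeb2 and Snai2 lie between 0.85 and 1.06, and each gene except Cdh11 and Vim has days on both sides of 0 between days 5 and 10.

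Set against the difference at day 0, the RepB/WT difference of days 5 to 10 passed the test in 5 genes of the table (0.0329%) and in 0 of the 10 genes. An unadjusted p under 0.05 was found in 1345 of 15179 genes and in 1 of the 10, Cdh2, at -0.63 ± 0.24 on the log2 scale (edgeR, adjusted p = 0.498). The slopes over days 5 to 10 differed between the lines in 0 of 12948 genes by edgeR, of which 200 had an unadjusted p under 0.05, none of them a member. DESeq2 and limma-voom also called 0. The largest slope difference of the 10 was in Cdh1, whose fall per day was smaller in RepB by 0.14 ± 0.12 (edgeR, adjusted p = 1.00). The cas share differed between RepB and WT in 2.24% of all genes and in 0 of the 8 members tested, and for Vim the difference in log2 odds was 0.03 ± 0.09 (edgeR, adjusted p = 1.00).

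Other genes of the programme were taken from lists chosen by function. The counts of each list below stand beside these shares of all genes. Against day 0, 31.7% were higher and 32.3% lower over days 5 to 10, 22.5% and 23.7% at day 5, and 33.8% and 31.9% at day 10. Slopes over days 5 to 10 were upward in 27.9% and downward in 26.6%, and 2.28% differed between RepB and WT. Among 35 epithelial junction genes and regulators, 21 were higher and 4 lower over days 5 to 10 than at day 0 (median 0.80), and 10 did not pass. Their slope over days 5 to 10 was downward in 19 of 34 and upward in 5, with a median of -0.17 per day. At day 5 alone 24 were higher and 2 lower than at day 0, and at day 10 18 were higher and 6 lower (median 0.46). Unlike Cdh1, most of the 35 genes were not lower at day 10 than at day 0. Over days 5 to 10 the keratin genes Krt8 and Krt18, which encode the filaments of simple epithelia, rose by 5.50 ± 0.19 and 5.52 ± 0.23 (edgeR, adjusted p = 6.84e-10 and 2.22e-09). Krt8 read 8.09 CPM at day 0 and 893 CPM at day 8 in WT. The largest falls were in Elf3 (-1.28 ± 0.11), an epithelial transcription factor, Dsg2 (-0.92 ± 0.12), a desmosomal cadherin, and Tjp3 (-0.68 ± 0.15), a tight junction scaffold.

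Of the 33 mesenchymal matrix and cytoskeleton genes, most were low at day 5, as Vim was: 24 were lower than at day 0 and 5 higher, with a median of -1.82. Of the 33, 10 are also on the fibroblast and feeder list, whose sum was lower at day 5 than at day 0, and 9 of these were lower and 0 higher. Of the other 23, counted apart after values were seen, 15 were lower and 5 higher (median -1.33). The part of feeder RNA in this dip was not tested. Over days 5 to 10 their slope was upward in 29 of 31 genes and downward in 1 (median 0.67 per day), and at day 10 they were higher than at day 0 in 30 and lower in 2. Averaged over days 5 to 10, 14 were higher and 10 lower than at day 0, where 31.7% of all genes were higher and 32.3% lower. Pdgfra, a receptor of early mesoderm, rose by 4.01 ± 0.28, the tropomyosin gene Tpm1 by 3.38 ± 0.14, and Tagln, which encodes an actin-binding protein, by 3.10 ± 0.14 (edgeR, adjusted p = 1.17e-07, 2.22e-09 and 3.24e-09). Lox, whose product cross-links collagen, fell (-5.37 ± 0.17). Col3a1 averaged -1.89 ± 0.22 against day 0, yet went from 83.1 CPM at day 0 through 1.69 CPM at day 6 to 1421 CPM at day 10 in WT. Of this list 3 genes were higher in RepB, Postn by 1.35 ± 0.31, Col3a1 by 1.04 ± 0.24 and Tgfbi by 0.60 ± 0.14 (edgeR, adjusted p = 0.0483, 0.0460 and 0.0460). All 3 calls were lost without day 7 (adjusted p = 0.129, 0.129 and 0.191), and that of Tgfbi without any single day of the 5. Postn, at 0.55 without day 8, and Col3a1 were not called by DESeq2 (adjusted p = 0.157 and 0.214) or after thinning to the smallest library (0.0661 and 0.0602).

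Of 18 other transcription factors tied to the transition, 11 were higher over days 5 to 10 and 5 lower. Of all genes 31.7% were higher and 32.3% lower. Brachyury (T), the primitive streak factor, was a pulse: it read 0.781, 44.9, 621, 289, 57.8 and 2.95 CPM in WT and 1.17, 121, 665, 178, 17.5 and 1.11 CPM in RepB. It was therefore highest on day 6, the day on which Snai1 stepped up. Twist2, the close relative of Twist1, rose by 3.79 ± 0.34 and the endoderm factor Gata6 by 3.91 ± 0.20 (edgeR, adjusted p = 1.25e-06 and 1.24e-08). The falls were in Klf4, a pluripotency factor (-5.30 ± 0.09), the mesenchymal homeobox gene Prrx1 (-3.05 ± 0.31) and Klf5 (-2.55 ± 0.08), among others. RepB differed from WT in 0 of the 18.

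Of the 15 signals and receptors that can induce the transition, 11 were higher over days 5 to 10 and 2 lower, beside 31.7% and 32.3% of all genes. Wnt3, which the primitive streak needs, rose by 5.43 ± 0.40, Fgf8 by 4.69 ± 0.37 and Bmp2 by 4.08 ± 0.21 (edgeR, adjusted p = 2.35e-07, 3.45e-07 and 1.21e-08). Wnt3 and Fgf8 peaked at day 6 in both lines, at 83.4 and 206 CPM in WT. Nodal averaged -0.71 ± 0.12, a call that was lost without day 10 (-0.20, adjusted p = 0.202).

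Catenins are the partners of E-cadherin at the membrane. Of 6 catenin genes, 5 were higher over days 5 to 10, among them Ctnnd1 (0.87 ± 0.12), Jup (0.74 ± 0.11) and Ctnnb1 (0.67 ± 0.10), and Ctnnd2 was lower (-0.56 ± 0.16), a call that was lost without day 5 (-0.39, adjusted p = 0.0529 by edgeR). Their slopes over days 5 to 10 were upward in 2 (Jup and Ctnnd2) and downward in 0. Of 12 other classical cadherin genes tested, 9 were higher over days 5 to 10 and 2 lower. Cdh5, the cadherin of endothelium, reached 86.7 CPM in WT and 142 CPM in RepB at day 10, and Cdh6 reached 41.4 and 36.8 CPM. RepB was lower in 3 of the 12, Cdh22 (-2.09 ± 0.34), Cdh24 (-0.66 ± 0.13) and Cdh4 (-0.64 ± 0.15) (edgeR, adjusted p = 0.00986, 0.0248 and 0.0440). These calls too were lost without day 7 (adjusted p = 0.0542, 0.106 and 0.221) and after thinning (0.0580, 0.0650 and 0.0637).

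Genes with the course most like each member were found by Pearson's r of log2 CPM, with 0.5 CPM added, over the 12 libraries. The search was among 11014 genes with a mean of at least 5 CPM. The libraries share the same days, so r describes a shared course only. Hook1 (r = 0.99), Plcg2 and Aqr were nearest to Cdh1. Rab25 (0.99), Stx3 and Crb3, of which Rab25 and Crb3 act in epithelial polarity and transport, were nearest to Epcam. For Cdh2 they were Pcdh7, Gmip and Rbms1, for Cdh11 Tmem119, Csf1 and Vgll4, and for Vim Cd44, Nrp1 and Tgfb1, all with r of 0.98 or 0.99. Arl4d (0.99), Sox17 and Zfp703 were nearest to Snai1, and Rbms2, Zfp711 and Atoh8 to Snai2 (all 0.99). For Twist1 they were Mmp14, F3 and Tmem9 (0.97, 0.96 and 0.96), for Zeb1 Synpo, Sh3bp1 and Col1a1 (0.99, 0.99 and 0.98), and for Zeb2 Flrt3, Capn2 and Pdcd6ip (all 0.99). Among the members themselves r was -0.97 between Cdh1 and Snai2, -0.50 between Cdh1 and Snai1, 0.76 between Cdh1 and Epcam, and 0.98 between Cdh11 and Zeb2. In the libraries of days 5 and 6 Snai2 read 0.110 to 0.406 CPM, below the 0.5 CPM added, so its r values rest partly on few counts.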

How the data were processed

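The authors deposited whole-number counts per gene for 12 RNA libraries, in total and for reads assigned to the cas or mus allele, and a column of another unit, the length in bases of the exons of a gene added up. The submitters' processing notes name the build mm9 and, with no version or role, the tools featureCounts, bedtools, SAMtools, TopHat and Novoalign. Whether counting used strand is not given in the sources used here. A further 6 count columns with no matching RNA sample were not used.

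Tests on the counts used edgeR 4.0.16 in R 4.3.3 (TMM scaling, filterByExpr, quasi-likelihood F test). Benjamini-Hochberg adjustment ran over every gene tested, and an adjusted p under 0.05 was called. The 12 libraries were fitted together, with a term for each day and a RepB effect at day 0 and over days 5 to 10, with 4 residual degrees of freedom. Slopes over days 5 to 10 had 7 and their difference between lines 6. The days served as blocks because the lines share them. Allele tests were limited to genes averaging 20 allelic counts or more and had 4 residual degrees of freedom. Their p-values for the members nevertheless came out as those of a normal distribution, not widened for the few libraries. CPM used the TMM-scaled library totals, and RPKM divided CPM by exon length in kilobases. DESeq2 1.42.0 and limma 3.58.1 (voom) were alternatives, besides other scaling, no filter, thinning to the smallest library, leaving out each day, no day term, 1 genotype effect over all 6 days, a slope on log2 days, 50 allelic counts and a pseudocount of 1 CPM. Simulated data were used for the edgeR tests of RepB against WT, days 5 to 10 against day 0, the slope, and the cas share against day 0. The other contrasts, DESeq2 and limma-voom were not tested in this way. Simulated allele counts had no spread beyond counting error, so they could not check the allele tests for such spread.

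The 10 genes and all lists were chosen with earlier results of these data known. The contrasts of days 5 and 10 with day 0 and of day 6 with day 5, and the tests of cas or mus reads of Vim alone, were added after values were seen. From each list of other genes, the text names the 3 that rose most and the 3 that fell most over days 5 to 10 among called genes whose average log2 CPM was 2 or more, besides all called between RepB and WT. Some genes that this rule names are not reported here.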

Additional observations from a re-analysis of the deposited data

Results flagged for a closer look

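The allele balance of Vim differed between day 0 and the later days. Its log2 odds of a cas read rose by 2.92 ± 0.12 from day 0 to days 5 to 10 (edgeR, adjusted p = 3.98e-136), in a test of the difference itself, and all 10 later libraries had a higher cas share than both day 0 libraries. The cas share was 11.5% at day 0 (753 of 6576 reads over both lines) and 51.0% later. The p is that of a normal distribution, not widened for the few libraries. Cells of day 0 had been kept on feeders. Col1a1 (1.19% to 57.6%) and Col1a2 (18.6% to 69.7%) shifted the same way, whereas Thy1 went from 49.4% to 63.0%. The part of feeder RNA in the day 0 share of Vim was not tested.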

How the results depend on the processing

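With 1 library per line and day, the alternatives test steadiness over days, not over cultures. For RepB against WT, days 5 to 10, 346 genes were called. The count was 592 with no filter on low counts, 50 with 1 genotype effect over all 6 days, and 38 to 744 when 1 day was left out (38 without day 7, 744 without day 8). With no day term, that is with no replicate block, it was 0 in edgeR, of which 240 genes had an unadjusted p under 0.05. The members called went from 0 to 1 (Cdh11) with no filter and with DESeq2. For RepB against WT, days 5 to 10 less day 0, 5 genes were called. That count was 14 with no filter, 12 with DESeq2, 28 with limma-voom, 1 after thinning, and 0 to 61 when 1 day was left out. For day 6 against day 5, both lines, 879 genes were called, and 663 to 1684 when 1 day was left out (1684 without day 8). The slope of Snai1 over days 5 to 10 turned from 0.15 to -0.21 without day 5 and spanned -0.21 to 0.71 over the days left out. Against day 0, Tgfbi turned from -0.38 to 0.28 without day 5 and 0.21 without day 6 (span -1.40 to 0.28), and Postn from -0.05 to 1.67 without day 5 (span -2.06 to 1.67). The cause of these changes was not tested, beyond the fewer libraries that leaving out a day gives. The other 165 counts over all genes or members stayed within 1.5 times the main count. Among single genes, 1318 values were counted as unchanged, 57 lost the call and 14 gained one. Unchanged means on the same side of the threshold or, for RepB/WT ratios with 1 CPM added, moved by less than the SD over days. Values called in neither setting count as unchanged even where their direction turned. Depth limits Snai2 most, with 2 to 6 counts in the libraries of days 5 and 6.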
